A study of Mus musculus with 9 samples.

Results

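The interval of Tnfrsf4 and Tnfrsf18 on mouse chromosome 4 carried a cluster of Stat5a and Stat5b binding in CD4+ T cells during Th2 differentiation. It is the window chr4:154750000-154920000 of the mm8 build, chosen from read counts and peaks of these same libraries because Stat5 signal had been seen there, so its height above the rest of the genome is a description and not a test. Of the 43771 regions formed by joining the 6 deposited peak lists, 15 lie in the window. The series measured Stat5a, Stat5b and an IgG control by chromatin immunoprecipitation and sequencing (ChIP-seq) at 3 stages of Th2 differentiation (8 h, 13 h and 2 rounds), with 1 library for each antibody and stage and 9 in all. The labels name the cells only as CD4+ T cells. They give no strain, age or genotype, and refer to a publication for the cultures. There are no expression values, so the cell type could not be checked against marker genes, and with no replicates each difference is one between 2 libraries.

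Tnfrsf4, also known as OX40, and Tnfrsf18, also known as GITR, are neighbouring genes for costimulatory receptors of the TNF receptor superfamily. Both appear on T cells after activation and are high on regulatory T cells, and both signal through TRAF adaptors towards NF-kB. Stat5a and Stat5b are closely related transcription factors that are phosphorylated by Janus kinases downstream of IL-2 and other cytokines, and their dimers recognise the DNA motif TTCNNNGAA. IL-2 is known to raise both receptors on T cells.

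The promoters of the pair are shown because they belong to the named genes and can be searched for the Stat5 motif. They come from RefSeq in the build GRCm38.p6, are the 250 bases before each start on the plus strand, and carry in capitals every match to TTCNNNGAA, a motif that reads the same on both strands. The first is chr4:156013445-156013694 (Tnfrsf4, gene ID 22163) and the second chr4:156026072-156026321 (Tnfrsf18, gene ID 21936).
Tnfrsf4: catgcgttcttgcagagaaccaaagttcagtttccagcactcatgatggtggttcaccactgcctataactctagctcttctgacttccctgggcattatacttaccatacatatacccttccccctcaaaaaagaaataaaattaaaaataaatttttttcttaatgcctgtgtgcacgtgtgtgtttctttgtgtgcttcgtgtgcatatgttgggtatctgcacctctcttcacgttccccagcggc
Tnfrsf18: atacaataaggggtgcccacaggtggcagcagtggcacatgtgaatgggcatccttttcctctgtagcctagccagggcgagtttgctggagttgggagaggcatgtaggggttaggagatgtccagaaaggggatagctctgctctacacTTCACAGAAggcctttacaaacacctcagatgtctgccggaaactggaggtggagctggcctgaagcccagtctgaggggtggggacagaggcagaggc

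The Tnfrsf18 promoter holds 1 match, TTCACAGAA, from 99 to 91 bases before the start, and the Tnfrsf4 promoter holds 0. Of the 32851 promoters in the table, 7.02% hold the motif in the same 250 bases. The match is a description of the letters and not a shown binding site. The peaks are in mm8 and the promoters in another build, so no peak was placed on either gene here, and which regions lie in a promoter, an intron or between genes is not stated. In the gene order of GRCm38.p6, Sdf4 and B3galt6 come before Tnfrsf4, the non-coding genes Gm16008 and Gm25982 lie between the pair, and Ttll10, Gm13648 and the microRNA genes Mir429, Mir200a and Mir200b follow Tnfrsf18.

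Library depth ranged from 3130228 reads (Stat5a at 8 h) to 9036070 (Stat5b at 13 h), and levels are given as RPM, reads per 1000000 reads of their library. In the window, Stat5a had 513, 1312 and 1316 reads at the 3 stages in order, Stat5b 777, 1744 and 2406, and IgG 449, 625 and 595. Scaled, Stat5a came to 163.9, 157.9 and 198.0 RPM, Stat5b to 113.1, 193.0 and 314.2, and IgG to 71.9, 83.1 and 102.8. Every ChIP library thus stood above the IgG library of its stage. Counting each start and strand a single time left 51.7% of the window's reads at the least (the last Stat5a library) and 77.6% at the most (the first Stat5b library). Many results are therefore also given with every start and strand counted a single time ("distinct starts"). Where no such value is printed, the result can still differ in size. Intervals are at 95% and cover counting error only. Repeated reads are not independent molecules, so intervals from all reads can be too narrow even for that.

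One place in the window stood apart between libraries and is not a peak of any list. In the 500 bp from 154897001 to 154897500, reads numbered 95 in Stat5a and 44 in IgG at 13 h, and 91 in Stat5a and 61 in IgG after 2 rounds. The other 5 libraries held between 2 and 26 reads there. A single start and strand held 88 of the 95 reads, 42 of the 44, 90 of the 91 and 61 of the 61. These 4 libraries are the ones that hold 24 bp reads beside 25 bp reads, and 24 bp reads made up 67.4%, 86.4%, 95.6% and 98.4% of the reads in this place against 38.0%, 49.7%, 54.5% and 77.3% of the whole libraries. The place counts in the window totals just given and in no region. Without it the window stood at 146.4 RPM for Stat5a and 77.2 for IgG at 13 h, and at 184.3 and 92.3 after 2 rounds.

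The deposited lists held 57 peaks in the window. Through the stages, Stat5a lists held 8, 7 and 7 of them and Stat5b lists 8, 14 and 13. The Stat5b peaks at 8 h were narrow, with a median width of 128 bp, and those after 2 rounds wide, with a median of 950 bp. The medians of the other 4 lists lay between 343 and 495 bp. Of 15447 windows of the same length laid end to end over the numbered chromosomes and X, 0.388%, 1.88% and 1.20% held as many Stat5a peaks in the successive lists. For Stat5b these shares were 0.272%, 0.240% and 2.65%, and the median such window held 0 peaks in every list. By RPM above IgG, between 0.168% (Stat5b at 8 h and Stat5a at 13 h) and 0.369% (Stat5a at 8 h) of these windows held as much as the interval.

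The peaks joined into 15 regions, numbered here 1 to 15 along the chromosome. They span 92065 bp from 154787079 to 154879143 and cover 13473 bp. Of the 15, 3 regions (7, 10 and 13) were in all 6 lists, 11 were in at least 2 lists and 4 were in a single list, the last a share of 26.7%. Over all 43771 regions, 2.63% were in all lists and 63.4% in a single list. Regions 1, 4, 5 and 11 were found only in Stat5b lists, region 4 at all 3 stages and the others at 13 h and after 2 rounds. Regions 6 and 12 were in both lists of 13 h and both of 2 rounds but in neither of 8 h. Region 8 was in every list except Stat5b at 8 h, and region 9 in both lists of 8 h and the 2 later Stat5b lists. The single-list regions were 2 (Stat5a at 13 h), 3 (Stat5b after 2 rounds), 14 (Stat5b at 13 h) and 15 (Stat5b at 8 h).

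Region 10, chr4:154865519-154866687, was the strongest of the interval. Through the 3 stages it held 78, 119 and 143 Stat5a reads, 67, 238 and 426 Stat5b reads, and 21, 15 and 3 IgG reads. As levels, Stat5a stood at 24.9, 14.3 and 21.5 RPM, Stat5b at 9.76, 26.3 and 55.6, and IgG at 3.37, 1.99 and 0.518. Stat5a was thus lowest at 13 h, Stat5b went up at each step, and IgG went down. Relative to IgG of the same stage, Stat5a was 7.41-fold (4.53 to 12.6), 7.18-fold (4.18 to 13.2) and 41.5-fold (13.9 to 204). Stat5b was 2.90-fold (1.75 to 4.99), 13.2-fold (7.85 to 24) and 107-fold (36.5 to 522), and the last value of each antibody rests on 3 IgG reads. On distinct starts these were 9.17-fold (4.55 to 20.4), 5.35-fold (2.87 to 10.9) and 23.2-fold (7.61 to 115) for Stat5a, and 4.46-fold (2.24 to 9.82), 8.72-fold (4.8 to 17.4) and 57.4-fold (19.4 to 281) for Stat5b. By mean RPM above IgG over the 6 ChIP libraries, region 10 ranked 66 of 43771 with 23.5 RPM, against 128 for the region with the most distinct starts above IgG in the genome, chr9:107153387-107156833. In the single libraries it ranked between 101 (Stat5b after 2 rounds) and 211 (Stat5a after 2 rounds) by reads.

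The reads of region 10 lay around a common centre in all ChIP libraries. With each distinct start moved 75 bp along its strand, the centre with the most starts within 75 bp to either side lay between 154866060 and 154866119 in the 6 libraries, within 59 bp. Within 250 bp of that centre, the median start of the minus strand lay 117, 135.5 and 113 bp to the right of that of the plus strand in the Stat5a libraries, and 59.5, 101 and 127.5 bp in those of Stat5b. Plus-strand starts to the left of minus-strand starts are what fragments that share a bound site give. The centre was chosen after starts were moved along their strand, which itself favours this order, so the distances are a description only. At most 8.33% of the reads in and within 150 bp of the region shared a single start and strand, so the region was not a pile at a fixed position. The summits of region 12 agreed as closely, within 64 bp, on fewer reads, while those of region 4 lay within 268 bp.

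**Figure D1:**
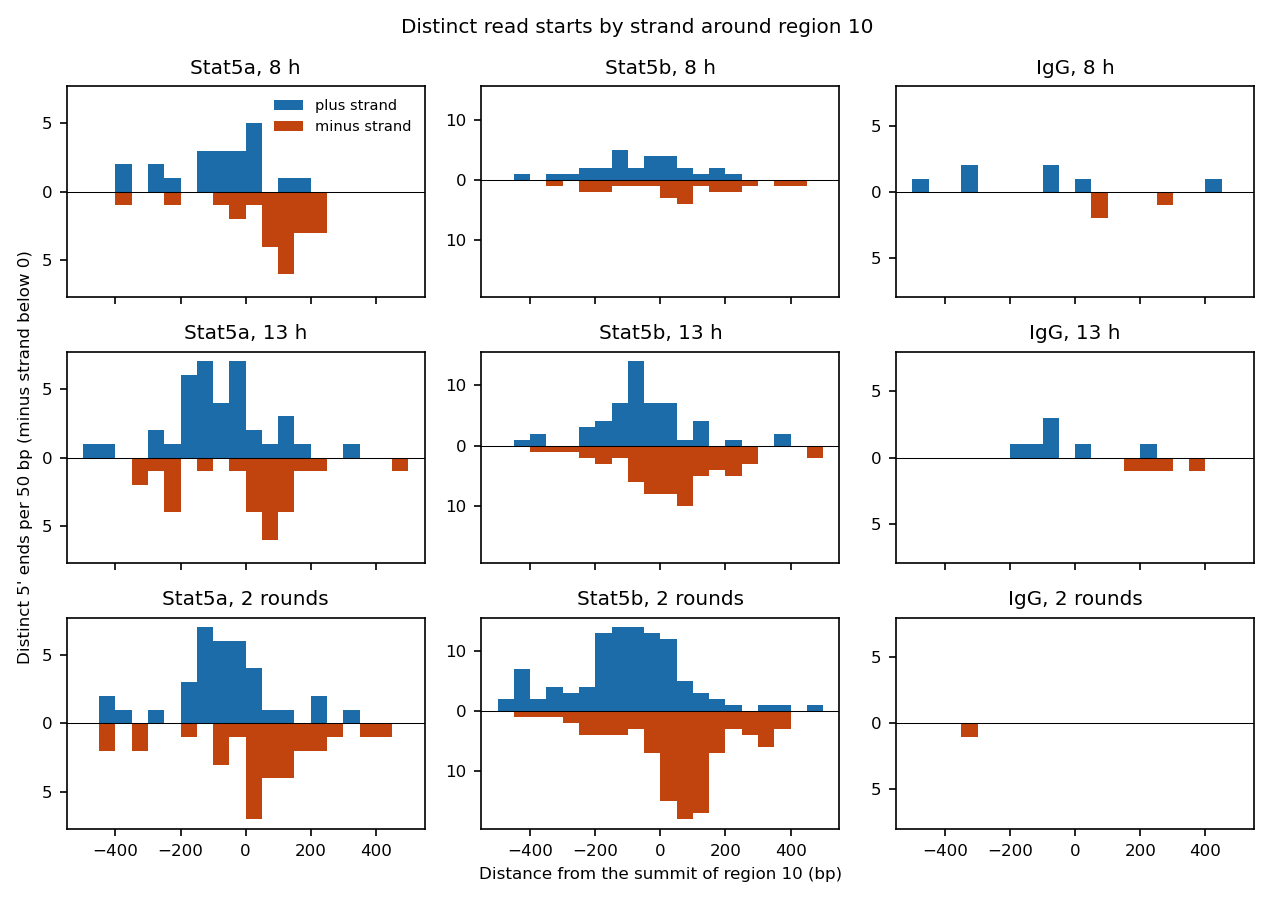
Distinct 5' ends per 50 bp on the plus strand (above 0) and minus strand (below 0) against distance in bp from the summit of region 10, by antibody (columns, each with its own y scale) and stage (rows). In Stat5b after 2 rounds the fullest plus-strand steps hold 14 starts to the left of the summit and the fullest minus-strand step holds 18 to its right; IgG after 2 rounds has 1 start in view.

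Region 13, chr4:154874130-154876590, came second and is made of at least 2 neighbouring peaks. Stat5a at 8 h had its peaks at 154874558-154874931, 154875380-154875879 and 154875796-154876183, and Stat5b at 13 h at 154874364-154875048 and 154875581-154876153. The later Stat5a lists, at 13 h and after 2 rounds, held only the right-hand peak. The region had 64, 84 and 73 Stat5a reads at the successive stages, 54, 179 and 300 Stat5b reads, and 11, 23 and 15 IgG reads. Stat5a stood at 20.5, 10.1 and 11 RPM, Stat5b at 7.86, 19.8 and 39.2, and IgG at 1.76, 3.06 and 2.59. The ratio to IgG of Stat5a was 11.6 (6.07 to 24.4), 3.31 (2.06 to 5.50) and 4.24 (2.41 to 7.96). That of Stat5b was 4.46 (2.31 to 9.46), 6.48 (4.19 to 10.5) and 15.1 (9.02 to 27.4). Stat5a was therefore highest at 8 h and Stat5b after 2 rounds, by RPM and by ratio to IgG. Region 10 had the same highest stages by RPM, but its Stat5a ratio to IgG was highest after 2 rounds. Its Stat5a level after 2 rounds was 0.864 times that at 8 h (0.651 to 1.15), an interval that includes 1.

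Region 7, chr4:154851643-154853379, likewise joined a pair of peaks, which only the wide Stat5b peak after 2 rounds spans as a whole. Its densest point lay between 154852278 and 154852359 in all 3 Stat5b libraries and in Stat5a after 2 rounds, and at 154852974 and 154852934 in Stat5a at 8 h and 13 h, so the fuller side of the pair differed between libraries. Stat5a stood at 14.1, 7.46 and 12.3 RPM, Stat5b at 4.81, 8.52 and 19.7, and IgG at 1.44, 2.39 and 1.73. The lower bound of the ratio to IgG was above 1 in all 6 libraries and lowest for Stat5b at 8 h, 3.33 (1.56 to 7.92).

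Region 8, chr4:154853787-154854689, is the next to the right of region 7 and had few reads at 8 h. Stat5a had 12, 56 and 57 reads there, Stat5b 12, 86 and 120, and IgG 6, 8 and 6. Stat5a stood at 3.83, 6.74 and 8.58 RPM and Stat5b at 1.75, 9.52 and 15.7, with IgG between 0.961 and 1.06. Its share among the regions can be read within each library, where the scaling of libraries plays no part. Of the reads in the 11 regions of at least 2 lists, region 8 held 4.44% (Wilson interval 2.56 to 7.61) of Stat5a at 8 h, 11.8% (9.19 to 15) at 13 h and 10.4% (8.09 to 13.2) after 2 rounds. For Stat5b the shares were 4.33% (2.50 to 7.42), 9.82% (8.02 to 12) and 8.13% (6.84 to 9.64), and for IgG between 6.50% and 7.14%. On distinct starts region 8 held 6 of 163, 27 of 270 and 35 of 292 for Stat5a, and 4.09%, 9.31% and 8.27% for Stat5b. At 13 h the intervals of both antibodies, 6.96 to 14.2 and 7.05 to 12.2, then overlapped those of 8 h, 1.70 to 7.80 and 2.17 to 7.59. Region 8 was singled out after its values were seen, and a gain in share from 8 h to 13 h was not its alone. In Stat5a the shares of regions 1, 4 and 6 also went up, and those of regions 5, 7, 9, 11 and 12 went down. Region 4 went from 1.85% (0.794 to 4.26) to 5.90% (4.11 to 8.39) in Stat5a, intervals that overlap. In Stat5b region 4 went from 5.78% (3.59 to 9.18) to 9.36% (7.61 to 11.5), intervals that overlap as well. Region 10, in contrast, held between 24.2% and 28.9% of the reads of every ChIP library, and 24.7%, 12.2% and 3.57% of those of IgG. Region 13 went from 23.7% (19.0 to 29.1) to 17.7% (14.5 to 21.4) and 13.3% (10.7 to 16.4) in Stat5a, and stood between 19.5% and 20.4% in Stat5b. On distinct starts its Stat5a shares were 23.9% (18.0 to 31.0), 19.6% (15.3 to 24.8) and 16.1% (12.3 to 20.8), whose intervals overlap.

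The 4 regions found only in Stat5b lists were weaker than regions 7, 8, 10 and 13 by mean RPM above IgG. Region 4, chr4:154835326-154836567, had 16, 82 and 98 Stat5b reads, against 5, 28 and 23 for Stat5a and 9, 20 and 8 for IgG. Levels there were 2.33, 9.08 and 12.8 RPM for Stat5b but 1.60, 3.37 and 3.46 for Stat5a. The ratio of Stat5a to IgG did not leave 1 at 8 h, 1.11 (0.292 to 3.68), or at 13 h, 1.27 (0.689 to 2.37), nor did that of Stat5b at 8 h, 1.62 (0.672 to 4.15), although that list names the region. Stat5b at 13 h was at 3.42 (2.08 to 5.88), and after 2 rounds Stat5a was at 2.50 (1.08 to 6.47) and Stat5b at 9.26 (4.52 to 22.1). On distinct starts the last Stat5a ratio was 1.39 (0.508 to 3.97). Region 1, chr4:154787079-154788028, is the leftmost region and reached 11.8 RPM of Stat5b after 2 rounds, 9.72 times IgG (4.53 to 24.9). Stat5a was there at 3.86 times IgG (1.67 to 10.4) after 2 rounds, or 3.23 times (1.13 to 11.3) on distinct starts. At 8 h and 13 h its ratios, 1.33 (0.389 to 4.18) and 1.19 (0.630 to 2.29), did not leave 1. In region 11, chr4:154869767-154870848, Stat5a had no peak in any list, yet it stood at 5.87 RPM after 2 rounds, 2.12 times IgG (1.16 to 4.07), beside 10.8 for Stat5b. On distinct starts the Stat5a ratio was 1.40 (0.647 to 3.10), an interval that includes 1.

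Regions 6, 9 and 12 were also among the 10 named regions and stood between 1.60 and 8.62 RPM in all ChIP libraries. Region 9, chr4:154857333-154858164, had its highest Stat5a level at 8 h, with 5.11, 3.01 and 2.26 RPM, and Stat5b at 2.91, 3.32 and 6.66. Region 12, chr4:154872429-154873240, had 0 IgG reads at 8 h. With IgG set at a floor of 3 counts, Stat5a was there 7.98-fold and Stat5b 3.33-fold higher (4.87-fold and 2.80-fold on distinct starts). Such floor values carry no interval. Of the single-list regions, 15 had more RPM of IgG than of ChIP on average, by 0.367 RPM, and Stat5b at 8 h, whose list names it, was at 1.56 times IgG (0.566 to 4.67), or 1.01 times (0.257 to 4.18) on distinct starts. Region 3 had 19 Stat5b reads after 2 rounds against 0 of IgG, 4.79-fold higher at the same floor (3.31-fold on distinct starts). It is a region only through the list of that same library, which favours such an excess.

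**Figure D2:**
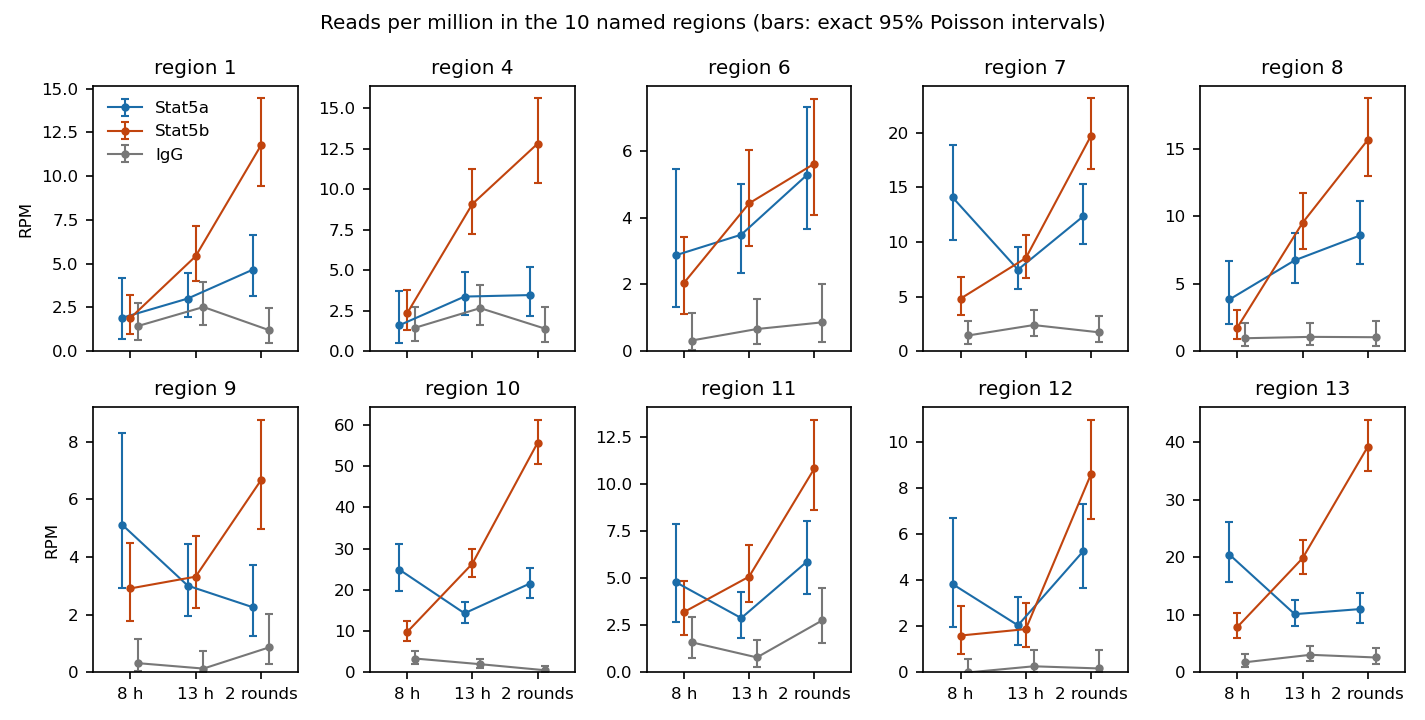
RPM (y axis, from 0, scaled per panel) of Stat5a, Stat5b and IgG at 8 h, 13 h and 2 rounds (x axis) in the 10 named regions, with exact 95% Poisson intervals. In region 10 Stat5b goes from 9.76 to 55.6 RPM while Stat5a is lowest at 13 h, and in region 8 both antibodies are lowest at 8 h.

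Bins drawn without the peak lists hold the same reads by which the window was chosen, so they only describe it. A bin of 500 bp was called above IgG when the interval of its ratio lay wholly above 2. Of the window's bins with a read in either library, 11 of 225 were called for Stat5a at 8 h, 11 of 268 at 13 h and 11 of 269 after 2 rounds, against 0.661%, 0.385% and 0.355% of all such bins of the genome. For Stat5b 3 of 273, 13 of 279 and 21 of 274 were called, against 0.110%, 0.403% and 0.717%. Since the window was picked for its signal, nothing is read from these shares. Distinct starts gave 5, 5 and 5 bins for Stat5a, and 0 and 8 for Stat5b at 8 h and 13 h. With IgG pooled over the stages, Stat5a had 19 at 8 h and 23 after 2 rounds, and Stat5b 10, 20 and 32. Of the 32 bins called in at least 1 library, 6 lay outside every merged region. Only the bin 154875501-154876000, in region 13, was called in all 6, with 37, 46 and 26 Stat5a reads and 21, 78 and 144 Stat5b reads against 2, 3 and 0 of IgG. The bin with the most reads, 154866001-154866500 in region 10, missed the call in Stat5b at 8 h, where 43 reads stood beside 17 of IgG.

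Away from the regions the interval was closer to the rest of the genome. Outside the 15 regions Stat5a stood at 0.484, 0.625 and 0.725 RPM per kb and Stat5b at 0.445, 0.589 and 0.747, with IgG at 0.360, 0.420 and 0.546. Without the place of repeated starts, Stat5a was at 0.469, 0.554 and 0.639, Stat5b at 0.437, 0.572 and 0.744 and IgG at 0.359, 0.384 and 0.481. Reads outside all regions of the genome stood between 0.308 and 0.373 RPM per kb in the 9 libraries. All 9 libraries together had no read in 19 of the 340 bins, of which the longest run was 4500 bp. Within the 15 regions Stat5a stood at 6.54, 4.46 and 6.28 RPM per kb, Stat5b at 3.23, 7.48 and 14.7, and IgG at 1.15, 1.28 and 1.28. IgG was thus also denser in the regions than beside them. Across the 340 bins, Pearson's r of read counts lay between 0.678 and 0.955 for the 15 pairs of ChIP libraries, between 0.0951 and 0.609 for ChIP and IgG, and between 0.189 and 0.731 for pairs of IgG. Without the place of repeated starts, the upper end for IgG pairs was 0.341. Spearman's rank correlation lay between 0.365 and 0.519 for pairs of ChIP libraries and between 0.198 and 0.448 for ChIP and IgG, ranges that overlap. Bins share mappability and neighbours, so these values describe the profiles only.

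The next comparison asks how far the regions stood above IgG at each stage, over the 11 regions in at least 2 lists. Summed over these, Stat5a had 270, 475 and 550 reads, Stat5b 277, 876 and 1476, and IgG 85, 123 and 84. Stat5a was 6.33-fold IgG (4.95 to 8.18) in the first stage, 3.50-fold (2.86 to 4.30) in the next and 5.70-fold (4.53 to 7.26) in the last. Stat5b was 2.96-fold (2.32 to 3.82), 5.93-fold (4.91 to 7.22) and 13.3-fold (10.7 to 16.8). On distinct starts the last values were 4.39-fold (3.36 to 5.82) for Stat5a and 10.6-fold (8.27 to 13.8) for Stat5b. The antibody further above IgG was thus Stat5a at 8 h and Stat5b later. The regions were called from the same ChIP reads, which favours an excess over IgG.

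From 8 h to 13 h the summed levels of the 2 antibodies over these regions changed in opposite directions. Stat5b was 2.40 times as high at 13 h (2.10 to 2.76), or 2.01 times (1.72 to 2.37) on distinct starts, and Stat5a 0.663 times (0.570 to 0.772). Scaled by the median ratio over all regions, Stat5b was at 1.27 times (1.1 to 1.45) and Stat5a at 0.762 times (0.655 to 0.889). IgG was at 1.20 times (0.903 to 1.60). A region was called risen or fallen when the interval lay wholly above 2 or below 0.5. For Stat5b, 3 of 15 regions rose (4, 8 and 10) and 0 fell, where 5.58% of all regions rose and 0.321% fell. Region 8 rose 5.45-fold (2.96 to 11), region 4 rose 3.90-fold (2.26 to 7.13) and region 10 rose 2.70-fold (2.05 to 3.60). On distinct starts only region 8 passed, at 4.58 times (2.22 to 10.7), and with libraries scaled by the median ratio over all regions 0 rose and 1 fell. For Stat5a 0 of 15 rose and 0 fell, where 0.297% of all regions rose and 2.23% fell. The ratio of Stat5a was 0.494 (0.353 to 0.695) in region 13, 0.575 (0.428 to 0.775) in region 10 and 1.76 (0.931 to 3.60) in region 8. Of the 12 regions of the window with Stat5a reads at both stages, 4 had a ratio above 1. These were regions 1, 4, 6 and 8, each with an interval that includes 1. In 25 bp reads alone the summed Stat5a ratio was 0.839 (0.716 to 0.985).

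From 13 h to 2 rounds the summed level was 1.99 times as high for Stat5b (1.83 to 2.16) and 1.45 times for Stat5a (1.28 to 1.64), with IgG at 0.888 times (0.665 to 1.18). For Stat5b 1 region rose and 1 fell, where 26.3% and 0.668% of all regions did. Risen regions were thus not more frequent here than among all joined regions. The Stat5b list after 2 rounds is the longest that formed those regions, with 33692 peaks, which favours a rise among them. Region 12 rose 4.58-fold (2.66 to 8.33), from 17 to 66 reads. Scaled by the median ratio over all regions, the summed Stat5b ratio turned to 0.771 (0.709 to 0.839) and 0 regions rose. Region 14 fell, from 28 to 4 reads, and is in the Stat5b 13 h list alone. On distinct starts neither passed, and with libraries scaled to reads outside all regions 2 rose and 0 fell. For Stat5a 0 of 15 rose and 0 fell, against 7.79% and 4.03% of all regions.

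Over the whole course, from 8 h to 2 rounds, Stat5b stood 4.78 times as high (4.20 to 5.45) and Stat5a 0.960 times (0.828 to 1.11). In 25 bp reads alone Stat5a was at 1.25 times (1.06 to 1.48), so the side of 1 on which it lies depends on the reads used. For Stat5b 9 of 15 regions rose and 0 fell, against 45.5% and 0.225% of all regions, a share of risen regions not far from the background. The 9 were regions 1, 3, 4, 7, 8, 10, 11, 12 and 13, with ratios between 3.38 (region 11) and 8.97 (region 8, 4.95 to 17.8). On distinct starts 7 passed. Region 3 is a region only through the Stat5b list of 2 rounds, which favours its rise. Regions 1, 11 and 12 are in no list of 8 h, which favours a rise in them too. Scaled by the median ratio over all regions, the summed Stat5b ratio was 0.991 (0.871 to 1.13) and 0 regions rose. The rise of Stat5b is thus relative to all reads and was no larger here than in the median of the joined regions. Those regions come from the same lists, with 33692 Stat5b peaks after 2 rounds against 3990 at 8 h. This favours a rise in the background, which is therefore no measure of the genome at large. For Stat5a 0 rose and 0 fell, against 4.12% and 2.10% of all regions.

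Set side by side, Stat5b stood at 0.468 times Stat5a at 8 h (0.394 to 0.555), at 1.70 times at 13 h (1.52 to 1.90) and at 2.33 times after 2 rounds (2.11 to 2.57). The antibodies can differ in how well they precipitate, so the level of the ratio is no measure of how much of each factor was bound. Scaled by the median ratio over all regions, the values were 0.855 (0.720 to 1.02), 1.37 (1.22 to 1.53) and 0.958 (0.869 to 1.06), of which the first and the last reach 1. Among the regions, Stat5b over Stat5a after 2 rounds was 3.70 (2.33 to 6.10) in region 4, 3.57 (2.75 to 4.67) in region 13, 2.59 (2.13 to 3.15) in region 10 and 1.60 (1.21 to 2.12) in region 7. The intervals of regions 13 and 7 did not overlap, but on distinct starts, at 3.11 (2.24 to 4.39) and 2.15 (1.46 to 3.24), they did.

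**Figure D3:**
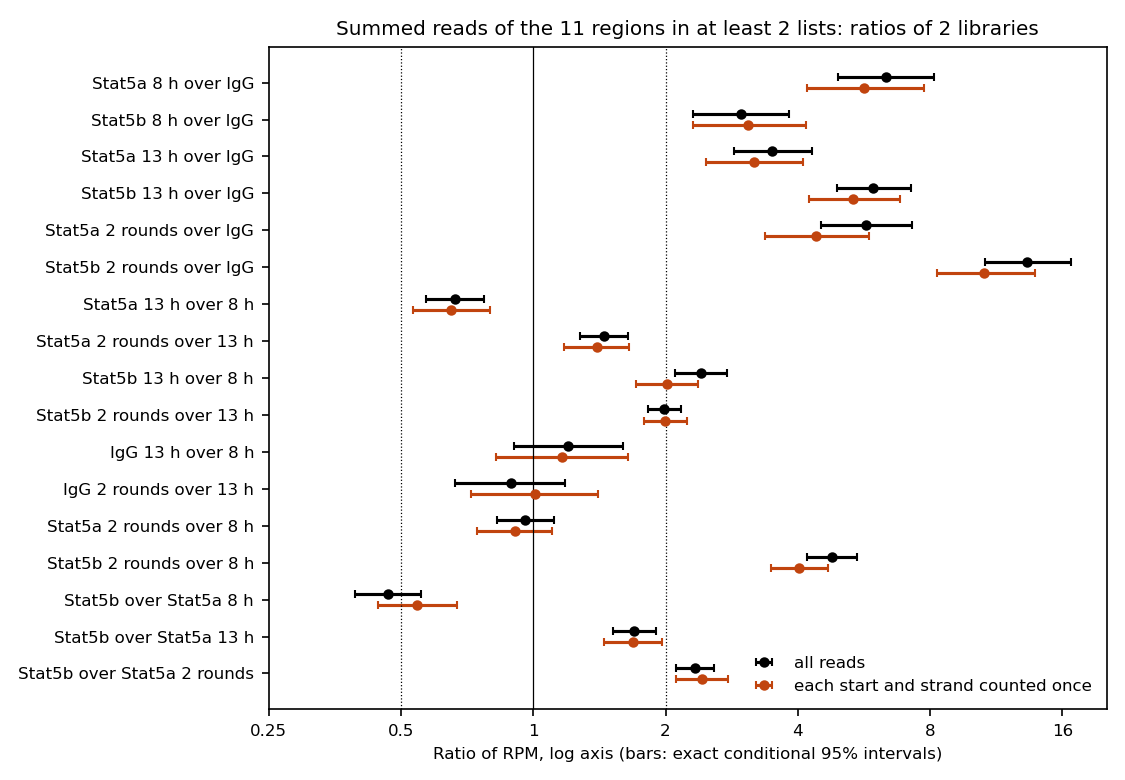
Ratios of summed reads of the 11 regions in at least 2 lists between 2 libraries (x axis, log scale) for 17 pairs (y axis), from all reads (black) and with each start and strand counted a single time (orange), with exact conditional 95% intervals and dotted lines at 0.5 and 2. Stat5b after 2 rounds lies 13.3 times above IgG and Stat5a at 13 h lies at 0.663 times its 8 h level.

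The regions elsewhere whose 6 ChIP levels were most like those of region 10 were chr2:152520866-152523503, chr8:84660947-84662518 and chr19:53589540-53591004, at distances of 0.433, 0.456 and 0.481 in log2(RPM + 0.5) over the 6 libraries, among 16031 regions in at least 2 lists. In the first, Stat5a stood at 24.6, 16.5 and 19.0 RPM and Stat5b at 11.2, 31.3 and 50.4. Its course, with Stat5a lowest at 13 h and Stat5b highest after 2 rounds, is the one by which it was picked.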

How the data were processed

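The members and lists were chosen with earlier results of these data known. Each library has a deposited list of mapped reads and each ChIP library a deposited list of peaks, whose values are positions in bp; the file names give the build mm8, while aligner, peak caller and any use of IgG were each not given in the sources used here. Peaks have no score. The 5' end of each read was counted; 24 bp reads, in 4 libraries, were moved 1 bp upstream, because 14.3% of 25 bp starts of the Stat5a 13 h library recur as 24 bp starts 1 bp downstream (at most 0.650% in the other 3 libraries). Peaks overlapping by 1 bp or more were joined, and regions in at least 2 lists were summed. The 10 named regions are those of at least 2 lists with the most RPM above IgG. Ratios of 2 libraries, each scaled to all its reads, carry exact conditional (Clopper-Pearson) 95% intervals, and shares Wilson intervals. With 1 library per antibody and stage no p-value is given. Calls were tested on simulated data. The simulated counts were independent draws, so the effect of repeated reads on the calls was not covered. Scripts ran with scipy 1.17.1, matplotlib 3.10.9, pandas 2.3.3, numpy 2.4.6 and Python 3.11.15.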

Additional observations from a re-analysis of the deposited data

Results flagged for a closer look

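From 8 h to 13 h, the summed reads of the 11 regions went down for Stat5a, to 0.663 times (0.570 to 0.772), and up for Stat5b, to 2.40 times (2.10 to 2.76). They are listed here because the sums of the antibodies moved in opposite directions under the same contrast, with 1 library each, and the difference was not tested. Scaled by the median ratio over all regions they were 0.762 (0.655 to 0.889) and 1.27 (1.1 to 1.45). In IgG the ratio was 1.20 (0.903 to 1.60). Region by region, Stat5a stood higher at 13 h in 4 of the 12 regions of the window with reads at both stages. In 25 bp reads alone the Stat5a ratio was 0.839 (0.716 to 0.985), and the part of the read lengths in the result was not tested.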

How the results depend on the processing

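No paired analysis was possible because each antibody and stage has 1 library. With distinct starts, Stat5b from 8 h to 13 h was at 2.01 times in place of 2.40, no longer wholly above 2, and 1 region rose in place of 3. From 13 h to 2 rounds 0 Stat5b regions rose and 0 fell in place of 1 and 1. Bins above IgG then numbered 5, 5 and 5 for Stat5a at 8 h, 13 h and 2 rounds in place of 11, 11 and 11, and 0 and 8 for Stat5b at 8 h and 13 h in place of 3 and 13. With IgG pooled over stages they numbered 19 and 23 for Stat5a at 8 h and 2 rounds, and 10, 20 and 32 for Stat5b. Scaled by the median ratio over all regions, Stat5b was at 1.27 times from 8 h to 13 h with 0 regions risen and 1 fallen, at 0.991 times from 8 h to 2 rounds with 0 risen and 1 fallen, and at 0.771 times from 13 h to 2 rounds with 0 risen. Stat5b over Stat5a after 2 rounds was then 0.958. Scaled to reads outside regions, Stat5b from 13 h to 2 rounds was at 2.27 times, wholly above 2, with 2 regions risen and 0 fallen. The cause of these changes was not tested. With reads moved 75 bp downstream, 8 regions in place of 9 rose for Stat5b from 8 h to 2 rounds, and bins above IgG numbered 9, 10 and 12 for Stat5a and 2, 12 and 19 for Stat5b. Bins offset by 250 bp gave 11, 9 and 12 for Stat5a and 3, 12 and 22 for Stat5b. In 25 bp reads alone Stat5a from 8 h to 2 rounds turned from 0.960 to 1.25 (1.06 to 1.48), with neither value wholly above 2 or below 0.5. Summed ratios over every region of the window, or over regions of the other antibody, kept their side of the thresholds. Regions 2, 3, 14 and 15 hold at most 28 reads in any library, and no change called there passed on distinct starts.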
